A study of Aspergillus nidulans with 7 samples.

Results

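Ergosterol is the main membrane sterol of fungi and takes the place that cholesterol has in animals. It is built from acetyl-CoA in a long pathway: the early steps make mevalonate and then farnesyl diphosphate, and the late steps join farnesyl units into squalene and turn squalene into ergosterol. Several late steps use molecular oxygen, and farnesyl diphosphate also feeds other products such as ubiquinone, dolichol and the lipid tails of proteins. SrbA is a transcription factor of the SREBP family (sterol regulatory element binding proteins), which in Aspergillus fumigatus is needed for growth in low oxygen and for normal expression of sterol genes.

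Transcripts of 9 enzyme genes of this pathway and of srbA were followed, 10 genes of the 10639 in the deposited count table, and they were chosen by name. The early steps were represented by 5 genes. These were erg10B (AN1409), erg13 (AN4923), the HMG-CoA reductase gene hmg1 (AN3817), erg12 (AN3869) and erg20 (AN8012). The late steps were represented by 4 genes, erg1 (AN11008), erg24B (AN4094), erg27 (AN1147) and erg2 (AN0451), and the regulator was srbA (AN7661). The reference table gave the symbols of the 9 enzyme genes and no symbol for AN7661.

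The samples were 7 mRNA sequencing libraries of the wild-type Aspergillus nidulans strain FGSC A4, 1 library at each time. At 0 h the mycelium had just been filtered from an aerated submerged culture in minimal medium. At 6, 12, 18, 24, 30 and 48 h the same kind of mycelium had been kept on wetted filter paper in still air under constant light, where it formed conidiophores, the stalks that bear the asexual spores. The submitters place aerial hyphae near 6 h, metulae near 12 h, phialides by 18 h and conidial chains from 24 h on. All libraries had the same strain and genotype, and no time had a second library, so that no time could be tested against another.

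Library totals ran from 4186063 to 9899347 counts. Levels are given in CPM, counts scaled to a common library size, after TMM normalization, which sets the bulk of genes level across libraries. The TMM factor was 0.459 at 0 h and between 0.878 and 1.39 afterwards, and the top 100 genes took 45.3% of all counts in the 0 h library against 20.8% in the 48 h library. All 10 genes passed the filter on low counts. The smallest count behind any value was that of erg27 at 0 h, 96 counts or 30.1 CPM, with an exact 95% counting interval of 24.4 to 36.7 CPM. The labelled course was checked with 6 conidiophore and spore genes (brlA, abaA, wetA, rodA, dewA and yA). Their summed level was 79.9 CPM at 0 h and 31.3 CPM at 6 h, with rodA and dewA at 0 counts at 0 h, and it was 8749 CPM at 48 h. Most of the 48 h sum was rodA (7561 CPM). brlA and rodA were above their 0 h levels at 12 h and dewA at 18 h, while abaA, wetA and yA were not above theirs before 30 h. The mixture of cell types thus changed along the course, and its part in the results below was not tested. In such bulk samples, fewer cells of a type and less RNA per cell cannot be told apart.

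Of these 10 genes, those called lower by the main slope tests belonged to the late steps. No early gene passed such a test, made on TMM-normalized counts against hours with all libraries of the span. The early gene erg12 was not called, though its 48 h level was 5.05-fold lower than at 0 h, beside 4.29-fold for erg24B. Other settings called erg10B and erg12, as given with each gene. Over 0 to 48 h, 2 of the 10 genes fell (erg1 and erg24B) and 0 rose, by edgeR's quasi-likelihood test of the slope on hours at a Benjamini-Hochberg adjusted p under 0.05. Of all 9703 genes tested, 12.4% fell and 10.6% rose. At an unadjusted p under 0.05 there were 4 genes, erg1, erg24B and erg12 with a lower and erg10B with a higher fitted level at the end. DESeq2 and limma-voom also called 0 of the 10 higher over this span. The median fitted change was 0.51 log2 units for the 5 early genes and -1.63 for the 4 late genes, with a median of 0.11 over all genes tested. Without the submerged culture, over 6 to 48 h, 3 genes fell (erg1, erg24B and erg2) and 0 rose, against 8.68% and 10.1% of 9691 genes. DESeq2 and limma-voom again called 0 of the 10 higher, and 4 had an unadjusted p under 0.05 in edgeR. The medians were then 0.28 for the early genes and -1.50 for the late genes. The 10 genes share the same libraries and are not replicates, so the gap between the classes is a description.

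**Figure D1:**
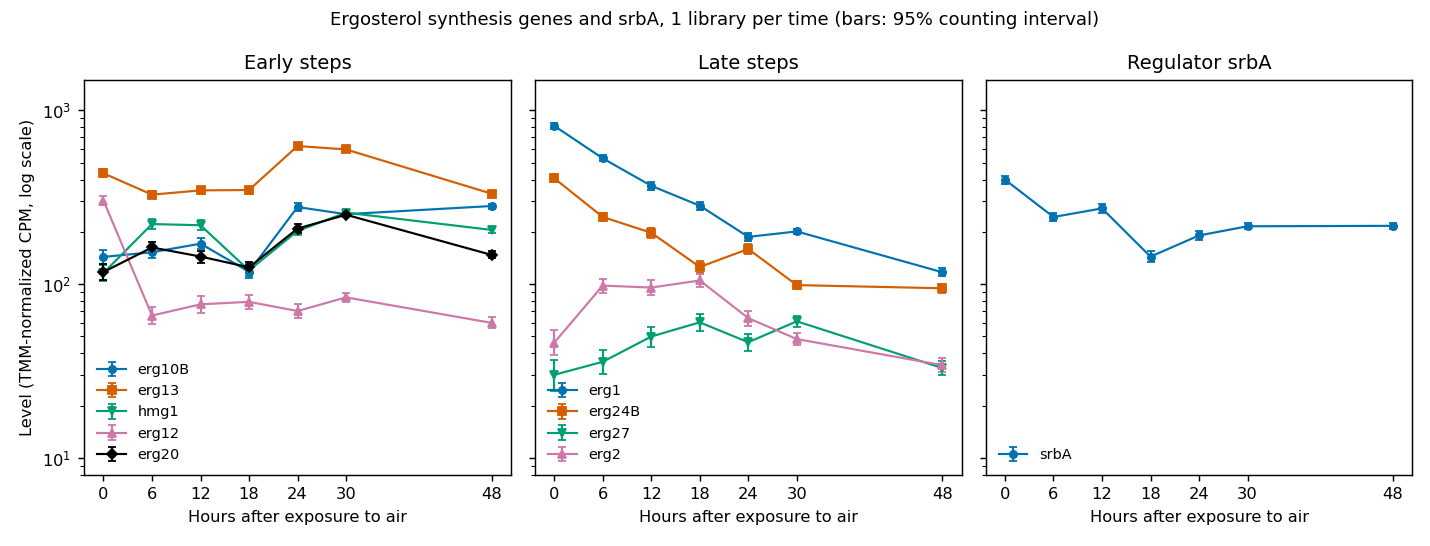
Level of each gene (TMM-normalized CPM, log axis) against hours after exposure to air, with the early genes, the late genes and srbA in separate panels; each point is 1 library and the bars are 95% counting intervals. erg1 runs from 814 CPM at 0 h down to 117 CPM at 48 h, while erg10B ends at 282 CPM, above its 143 CPM at 0 h.

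Acetoacetyl-CoA thiolase, encoded by erg10B (contig 22, 14139 to 15561), joins a pair of acetyl-CoA molecules and so opens the pathway. Its level was 143, 153, 171, 118, 278, 253 and 282 CPM in time order. The 3 latest libraries were all above the 4 earlier ones, with the step between 18 and 24 h (2.36-fold, exact 95% counting interval 2.15 to 2.59). The fitted change of 1.15 log2 units ± 0.46 (SE, 7 libraries) was not called (edgeR adjusted p = 0.102). It was the highest of the 10 fitted changes. With upper quartile factors it was 1.47 and passed (edgeR adjusted p = 0.0482), and scaled by totals it was 2.47 (edgeR adjusted p = 0.0172).

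HMG-CoA synthase, encoded by erg13 (contig 82, 226002 to 227439), adds the third acetyl unit. Its level was 434, 327, 346, 348, 623, 596 and 332 CPM along the 7 times. The 24 and 30 h libraries stood above all others and the 48 h library was back near the level of 6 to 18 h. HMG-CoA reductase, encoded by hmg1 (contig 59, 848450 to 851966), makes mevalonate and is the classical control point of sterol synthesis. Its level was 116, 222, 218, 119.97, 202, 258 and 205 CPM, low at 0 and 18 h and high in the other 5 libraries. Neither slope passed the test (0.22 ± 0.58 for erg13 and 0.51 ± 0.53 for hmg1, SE, 7 libraries; edgeR adjusted p = 0.816 and 0.52).

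Mevalonate kinase, encoded by erg12 (contig 60, 115976 to 118905), stood apart from the other early genes. Its level was 302 CPM at 0 h and then 66.0, 76.5, 79.1, 70.0, 83.9 and 59.9 CPM. On the TMM scale the submerged culture was the only high library. The 6 h level was 4.58-fold lower than at 0 h (exact 95% counting interval 4.03 to 5.23), and the air-grown libraries lay within a narrow band. A straight line describes such a course poorly: the slope over 0 to 48 h had a change of -1.73 ± 0.66 (SE, 7 libraries; edgeR adjusted p = 0.0871), and with 0 h left out it was -0.13 (edgeR adjusted p = 0.826). On a time scale of log2 hours plus 6, which gives the first hours more weight, the change was -2.001 and passed (edgeR adjusted p = 0.0147), and it also passed without the 6 h library (edgeR adjusted p = 0.0489).

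Farnesyl diphosphate synthase, encoded by erg20 (contig 136, 1272 to 2374), closes the early part of the pathway and supplies its branch point. Its level was 117, 163, 144, 125, 209, 251 and 147 CPM. As for erg13, the 24 and 30 h libraries were the highest. Its slope did not pass the test (0.54 ± 0.52, SE, 7 libraries; edgeR adjusted p = 0.485).

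Squalene epoxidase, encoded by erg1 (contig 129, 42688 to 44196), puts molecular oxygen into squalene and is the target of the antifungal terbinafine. Its level was 814, 529, 368, 283, 187, 201 and 117 CPM. On the TMM scale each library was below the one before it except that at 30 h. The 48 h level was 6.95-fold lower than the 0 h level on that scale (exact 95% counting interval 6.52 to 7.41). Scaled by totals, erg1 had 374 CPM at 0 h, was highest at 6 h (465 CPM) and had 163 CPM at 48 h. The slope fell by 2.73 log2 units over 0 to 48 h (SE 0.44, 7 libraries; edgeR adjusted p = 0.0038) and the change over 6 to 48 h was -2.06 (SE 0.37, 6 libraries; edgeR adjusted p = 0.00632). Both calls held under every scaling and tool tried and without any 1 library, scaling by totals included (-1.43 over 0 to 48 h; edgeR adjusted p = 0.041).

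Sterol C-14 reductase, encoded by erg24B (contig 65, 27225 to 28763), acts soon after the removal of the C-14 methyl group by the Cyp51 enzymes. Its level was 407, 243, 198, 126, 159, 98.7 and 94.7 CPM, highest at 0 h and lowest in the 2 latest libraries. Scaled by totals, erg24B had 187 CPM at 0 h and 214 CPM at 6 h. On the TMM scale it fell by 2.001 log2 units over 0 to 48 h (SE 0.46, 7 libraries; edgeR adjusted p = 0.0149). This call was lost when levels were scaled by totals (-0.69; edgeR adjusted p = 0.255). Over 6 to 48 h it fell by 1.30 log2 units (SE 0.38, 6 libraries; edgeR adjusted p = 0.0429). That second call was lost with upper quartile factors (edgeR adjusted p = 0.0504), by totals (edgeR adjusted p = 0.178) and with 6, 12, 24, 30 or 48 h left out (edgeR adjusted p from 0.0682 to 0.124).

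The remaining late genes were highest within the course and not at 0 h. The 3-keto sterol reductase gene erg27 (contig 16, 307695 to 308783) acts in the removal of the C-4 methyl groups. Its level was 30.1, 35.8, 49.96, 60.3, 46.3, 61.1 and 32.9 CPM, highest in the middle of the course and alike at both ends. Scaled by totals, the ends of erg27 were not alike, at 13.8 CPM (0 h) and 45.9 CPM (48 h). Its slope did not pass the test (0.22 ± 0.56, SE, 7 libraries; edgeR adjusted p = 0.809).

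The sterol C-8 isomerase gene erg2 (contig 7, 223013 to 223819) had levels of 46.1, 98.1, 95.6, 105, 63.7, 48.3 and 34.2 CPM. It was high from 6 to 18 h and lower before and after. The fold from the 0 h to the 6 h library was 2.13 (exact 95% counting interval 1.77 to 2.58). Over 6 to 48 h it fell by 1.70 log2 units (SE 0.37, 6 libraries; edgeR adjusted p = 0.013), while over 0 to 48 h it did not pass the test (-1.25 ± 0.66, SE; edgeR adjusted p = 0.197). The first of these calls was lost with 48 h left out (-1.01; edgeR adjusted p = 0.118) and by totals (-1.12; edgeR adjusted p = 0.0544).

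The regulator gene srbA (contig 127, 177848 to 180895) had levels of 399, 243, 273, 144, 191, 215 and 216 CPM. The 0 h library was the highest and the 18 h library the lowest, 2.77-fold apart. Its slope did not pass the test over 0 to 48 h (-0.71 ± 0.48, SE, 7 libraries; edgeR adjusted p = 0.31) or over 6 to 48 h (-0.13 ± 0.40, SE, 6 libraries; edgeR adjusted p = 0.86). The sign depended on the scaling: by totals the change over 0 to 48 h was 0.62 (edgeR adjusted p = 0.311). Scaling by totals moved the median of all genes from 0.11 to 1.35, and relative to that median srbA changed by -0.83 on the TMM scale and by -0.73 by totals. On the same relative scale erg1 changed by -2.84 and -2.78, erg24B by -2.12 and -2.04, and erg10B by 1.04 and 1.11. Subtracting the median takes out most of the scaling, so these pairs could hardly differ and give no separate support.

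Since several courses peaked or dipped in the middle, a quadratic in hours was fitted as well. It passed edgeR's F test for 2 of the 10 genes, against 32.0% of all 9703 genes tested, and 5 of the 10 had an unadjusted p under 0.05. These were erg1 (edgeR adjusted p = 0.0028) and erg24B (edgeR adjusted p = 0.00814). erg12 (edgeR adjusted p = 0.0503), erg27 (edgeR adjusted p = 0.0693) and erg2 (edgeR adjusted p = 0.0908) did not pass.

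Between neighbouring times, moves of at least 2-fold on the TMM scale were seen at 2 steps, entry into air and 18 to 24 h. From 0 to 6 h, 1 of the 10 genes was at least 2-fold higher (erg2) and 1 at least 2-fold lower (erg12). Among all genes the shares were 16.4% and 18.7%. hmg1 was just under it, at 1.91-fold (exact 95% counting interval 1.70 to 2.16). This step depended on the scaling, with TMM factors of 0.459 at 0 h and 0.878 at 6 h. Scaled by totals, erg10B (65.9 to 134 CPM), hmg1 (53.2 to 195 CPM), erg20 (53.9 to 143 CPM) and erg27 (13.8 to 31.4 CPM) were also at least 2-fold higher. On that scale erg12 was still at least 2-fold lower (139 to 57.9 CPM). From 18 to 24 h erg10B was at least 2-fold higher, while 3.76% of all genes were. At this step 0 of the 10 was at least 2-fold lower against 2.07%. By totals erg13 was at least 2-fold higher as well (373 to 758 CPM). At the other steps 0 of the 10 passed this fold in either direction. The shares of all genes higher and lower were 12.3% and 2.46% from 6 to 12 h, 5.02% and 3.55% from 12 to 18 h, 3.05% and 2.73% from 24 to 30 h, and 7.29% and 12.8% from 30 to 48 h. Between the ends of the course, on the TMM scale, 3 of the 10 were at least 2-fold lower (erg12, erg1 and erg24B). On that scale 0 were at least 2-fold higher, and the shares of all genes were 23.6% and 30.5%. By totals erg12 (139 to 83.5 CPM) and erg24B (187 to 132 CPM) were lower by less than 2-fold. By totals erg10B, erg13, hmg1, erg20, erg27 and erg2 were at least 2-fold higher.

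**Figure D2:**
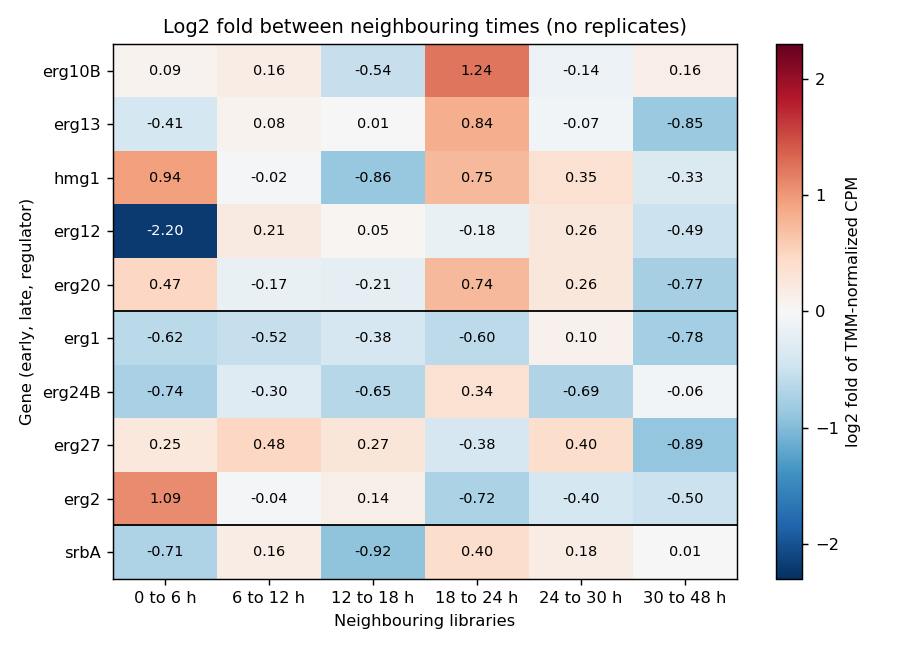
Log2 fold of TMM-normalized CPM from each time to the next (columns) for the 10 genes (rows; lines separate early genes, late genes and srbA), with 1 library per time. In the 18 to 24 h column erg10B, erg13, hmg1 and erg20 lie between 0.74 and 1.24, while erg1, erg27 and erg2 lie between -0.72 and -0.38.

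At the 18 to 24 h step most early genes were higher and most late genes lower. erg10B, erg13, hmg1 and erg20 were 1.67 to 2.36 times as high at 24 h as at 18 h, and erg12 was not (0.886-fold, exact 95% counting interval 0.772 to 1.02). Of the late genes, erg1 was at 0.661 of its 18 h level, erg2 at 0.607 and erg27 at 0.768, while erg24B was 1.27-fold higher. The median log2 fold was 0.75 for the early genes and -0.49 for the late genes, beside 0.01 over all genes tested. From 30 to 48 h the medians of both classes were below 0, at -0.48 and -0.64. The folds have no replicate check, and their intervals cover counting error only.

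The balance within the pathway needs no scaling between libraries, because all genes are read from the same library. When counts were divided by coding length, the 4 late genes made up 56.5, 53.6, 47.9 and 47.8% of the level of the 9 enzyme genes at 0, 6, 12 and 18 h. They made up 27.9, 25.2 and 24.4% at 24, 30 and 48 h. The late share was thus higher in each of the 4 earlier libraries than in any of the 3 later ones. In plain counts the late genes held 42.1% at 18 h (2988 of 7103 counts, exact 95% interval 40.9 to 43.2%) and 24.8% at 24 h (2828 of 11393 counts, exact 95% interval 24.0 to 25.6%). These intervals too cover counting error within 1 library and say nothing of the spread between cultures. The summed early level per kb was 718 CPM per kb at 0 h, 541 CPM per kb at 18 h, 974.7 CPM per kb at 24 h, 997 CPM per kb at 30 h and 704 CPM per kb at 48 h. The summed late level on the TMM scale went down at every step. It was 932 CPM per kb at 0 h, 496 CPM per kb at 18 h and 227 CPM per kb at 48 h. Unlike the shares, these sums depend on the scaling between libraries. Scaled by totals, each of the 4 late genes was higher at 6 h than at 0 h, and so was their sum.

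**Figure D3:**
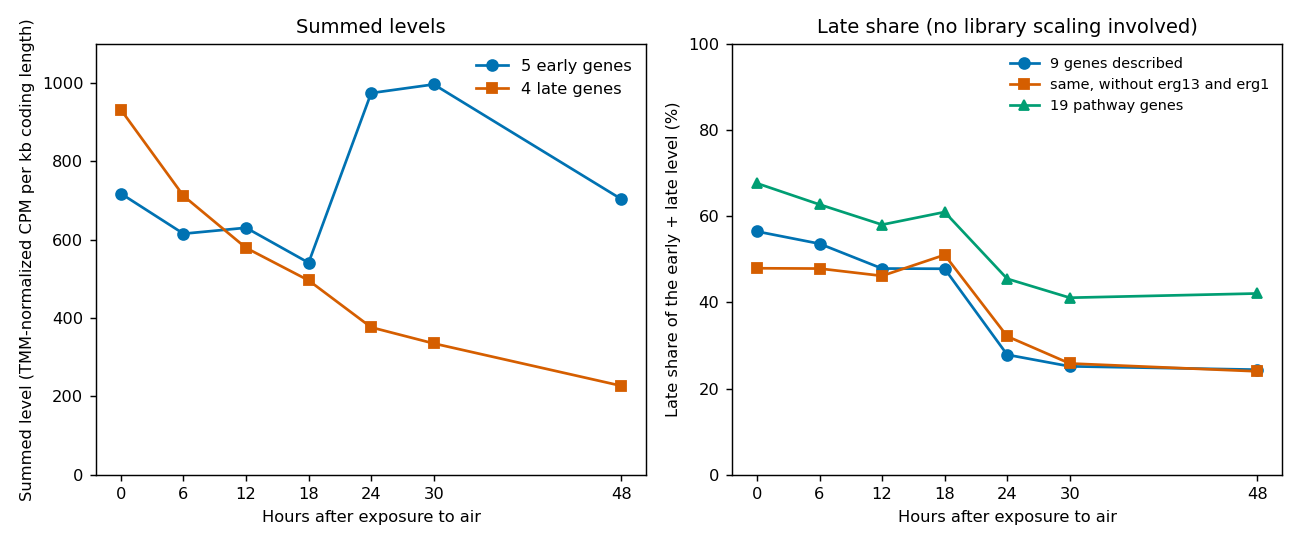
Left, summed level of the 5 early and the 4 late genes (TMM-normalized CPM per kb of coding length) against hours; right, the late share of the early plus late level in percent for the 9 genes, without the most abundant gene of each class, and for 19 pathway genes. The late share of the 9 genes is 47.8% at 18 h and 27.9% at 24 h, and the other sets also step down there.

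The step was also present without the leading genes. Without erg13 and erg1, the most abundant gene of each class per kb at 0 h, the late share was 47.9% at 0 h, 51.0% at 18 h, 32.1% at 24 h and 24.0% at 48 h. Over the 19 pathway genes described below it was 61.0% at 18 h and 45.5% at 24 h. Their early sum went from 795 to 1287 CPM per kb over that step. Their late sum changed less, from 1243 to 1074 CPM per kb. Within the 9 genes erg1 went from 33.97% of the summed level per kb at 0 h to 8.66% at 48 h, and erg24B from 16.5 to 6.82%. erg10B went the other way, from 7.25 to 25.2%, and erg20 from 6.82 to 15.2%. Ordered by level per kb, erg1 (561 CPM per kb), erg13 (315) and erg24B (273) led at 0 h, and erg13 (240), erg10B (235) and erg20 (141) led at 48 h. The counting intervals of erg13 and erg10B overlap at 48 h. The 3-keto sterol reductase gene erg27 was among the 2 lowest of the 9 enzyme genes at both ends (27.6 and 30.2 CPM per kb).

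Further genes of the pathway, taken by reference symbol together with AN1901 and AN8283 entered as cyp51A and cyp51B, gave 10 more enzymes. Over 0 to 48 h 3 of them fell and 0 rose, with a median change of -0.82. Together with the 9 genes above, 1 of 8 early genes and 4 of 11 late genes fell, and the medians were 0.37 and -0.99. Over all genes tested 12.4% fell and 10.6% rose, so the early share of 1 in 8 lay near that background. AN1901, entered as the sterol C-14 demethylase gene cyp51A, had 1017, 326, 316, 329, 257, 225 and 162 CPM in time order and fell (change -2.23 ± 0.55, SE; edgeR adjusted p = 0.0203). With the 0 h library left out the change was -1.05 and no longer called (edgeR adjusted p = 0.0612). With 30 h left out the change was -2.21 and the call was lost (edgeR adjusted p = 0.0547). By totals the call was lost as well (-0.78; edgeR adjusted p = 0.182). Its paralog AN8283, entered as cyp51B, had 196 CPM in the first and 147 CPM in the last library, with no call (edgeR adjusted p = 0.409).

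erg5, which encodes the C-22 sterol desaturase, went from 460.2 to 141 CPM (change -1.82 ± 0.41, SE; edgeR adjusted p = 0.0145). The phosphomevalonate kinase gene erg8, the 1 early gene that fell, went from 346 to 108 CPM (change -1.67 ± 0.40, SE; edgeR adjusted p = 0.0179). Scaled by totals, neither passed (edgeR adjusted p = 0.352 and 0.59), and erg8 was also not called with 30 h left out (edgeR adjusted p = 0.0532) or with 48 h left out (-0.89; edgeR adjusted p = 0.144). Of the enzymes that follow erg8, the diphosphomevalonate decarboxylase gene mvd1 had a change of 0.04 (edgeR adjusted p = 0.965). The isopentenyl diphosphate isomerase gene idi1 had 47.6 CPM in the 0 h library, 38.5 CPM in the 6 h library and 87.7 CPM in the last (change 1.07 ± 0.35, SE; edgeR adjusted p = 0.0536). Upper quartile factors gave 1.38 and a call (edgeR adjusted p = 0.0176), and totals gave 2.40 and a call (edgeR adjusted p = 0.00468). The sterol C-24 methyltransferase gene erg6, not called by edgeR over 0 to 48 h (-0.99; adjusted p = 0.151), was called lower by DESeq2 (-1.04; adjusted p = 0.0496).

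**Figure D4:**
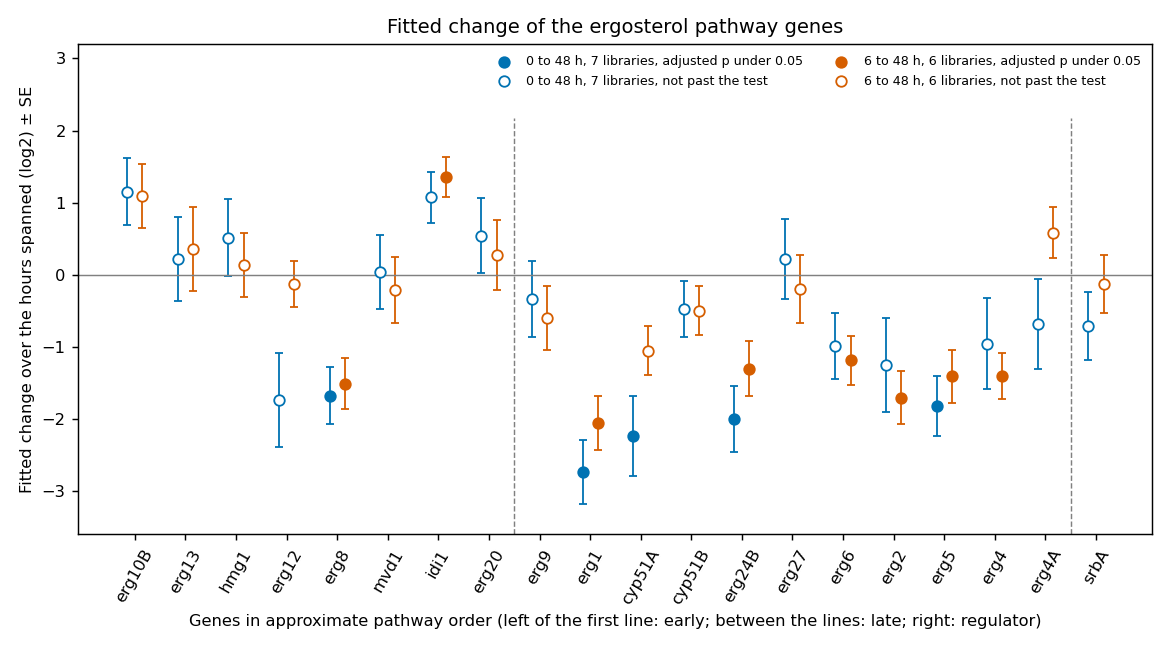
Fitted change (log2, ± SE) over 0 to 48 h (blue) and 6 to 48 h (orange) for 19 pathway enzymes in approximate pathway order and for srbA; filled points passed the test at an adjusted p under 0.05. Of 11 late genes 4 fell over 0 to 48 h and 6 over 6 to 48 h, and of 8 early genes only erg8 fell in either fit and idi1 rose over 6 to 48 h.

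Over 6 to 48 h 4 of the 10 further enzymes fell and 1 rose, so that 6 of 11 late genes and 1 of 8 early genes fell in all, beside 8.68% of all genes tested that fell and 10.1% that rose. Besides erg5 and erg8, these were erg6, from 265 to 104 CPM (change -1.19 ± 0.34, SE; edgeR adjusted p = 0.0382), and erg4, a sterol C-24 reductase gene, from 50.9 to 20.8 CPM (change -1.40 ± 0.32, SE; edgeR adjusted p = 0.0164). At 0 h erg6 had 154 CPM and erg4 20.1 CPM, both below the 6 h level. On the TMM scale erg4 ended near its 0 h level, while by totals it had 9.20 CPM at 0 h and 29.1 CPM at 48 h. idi1 rose by 1.36 ± 0.28 (SE, 6 libraries; edgeR adjusted p = 0.0111). The calls of idi1 (0.67; edgeR adjusted p = 0.173), erg8 (-0.71; edgeR adjusted p = 0.201), erg4 (edgeR adjusted p = 0.0669) and erg6 (-0.74; edgeR adjusted p = 0.177) were lost when 48 h was left out. Those of erg4, erg8, erg5 and erg6 were also lost by totals (edgeR adjusted p from 0.0829 to 0.201) and with 12 h left out (edgeR adjusted p from 0.0514 to 0.0804). Those of erg8, erg5 and erg6 were lost with 30 h left out (edgeR adjusted p from 0.0502 to 0.0957), and those of erg5 and erg6 with 6 or 24 h left out (edgeR adjusted p from 0.0539 to 0.125). The call of erg6 was lost as well with 18 h left out (edgeR adjusted p = 0.0518) and with upper quartile factors (edgeR adjusted p = 0.0533). AN1901 (cyp51A) was not called by edgeR over this span and was called by DESeq2 (adjusted p = 0.0032) and limma-voom (adjusted p = 0.0427).

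Genes of haem synthesis and of products with farnesyl or polyprenyl groups were represented by few symbols. Of 3 haem synthesis genes 2 fell over 0 to 48 h. hem13, which encodes the oxygen-using coproporphyrinogen oxidase, went from 4273 to 210.3 CPM (change -4.05 ± 0.52, SE; edgeR adjusted p = 0.00146), and its call held under every alternative. hemA, which encodes the first enzyme of haem synthesis, had 706 CPM in the 0 h, 143 CPM in the 6 h and 103 CPM in the 48 h library (change -2.18 ± 0.66, SE; edgeR adjusted p = 0.0414). With 0 h left out that call was lost (-0.66; edgeR adjusted p = 0.312), as by totals (-0.65; edgeR adjusted p = 0.354), and also with limma-voom, with upper quartile factors and without the 12, 18, 24, 30 or 48 h library (adjusted p from 0.0546 to 0.0916). Of 3 genes of products with farnesyl or polyprenyl groups, coq4 of ubiquinone synthesis fell from 159 to 51.5 CPM (change -1.54 ± 0.37, SE; edgeR adjusted p = 0.0175). It was not called with 0 h left out (-0.99; edgeR adjusted p = 0.0548), with 30 h left out (edgeR adjusted p = 0.0512) or by totals (-0.24; edgeR adjusted p = 0.696). The other two, cox10 and cdc43, were not called (edgeR adjusted p = 0.302 and 0.0871). dscA, the single gene found by symbol for the activation of SrbA, had 67.0 CPM in the first and 41.5 CPM in the last library (edgeR adjusted p = 0.443).

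The course of srbA was set beside those of the enzyme genes as a description over the same 7 libraries. On log2 CPM on the TMM scale, Pearson's r with srbA was 0.76 for erg24B, 0.72 for erg12 and 0.65 for erg1, all of which share with srbA a high 0 h library. It was between -0.66 and -0.04 for the other 6. Scaled by totals, r was -0.08, -0.12 and -0.42 for those 3 genes. It was 0.75 for hmg1, 0.74 for erg10B, 0.61 for erg20, 0.50 for erg13, 0.35 for erg27 and 0.02 for erg2. The likeness of srbA to either class thus depended on the scaling. Among 718 further genes with a symbol and a mean of at least 10 CPM, the 5 most like srbA were lah, pan1, spp2, bck1 and rom2 (r from 0.96 to 0.99 over 7 libraries). By totals 2 of these 5 remained among the 5 most alike. The 5 most like the mean profile of the 9 enzymes were ams1, niaD, pld2, erg8 and tcsB (r from 0.88 to 0.91), of which 0 remained by totals. Among the 9 enzyme genes erg1 and erg24B were the pair with the highest r (0.92), and erg20 had r between 0.71 and 0.78 with erg10B, erg13 and hmg1.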

How the data were processed

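Per the labels, mRNA from FGSC A4 was sequenced in 7 libraries, 1 per time. Per the labels' protocols duplicate filters were collected at each time; no source used here says whether they were pooled. The authors deposited raw counts, a signal in reads per nucleotide and RPKM values per gene. The authors' deposited count values are whole numbers, and the tests ran on them. The deposited signal was the count divided by a gene length, which gave the coding length used here. The authors' RPKM equals the count over length and over that library's own total, and was not tested. The submitters' processing notes name CASAVA. The sources used here give no aligner, build, annotation, strand setting or handling of multiply mapped reads, so near-identical paralogs and antisense genes cannot be separated. Contig positions are those of the deposited table. By those positions erg2 lies within AN0621, whose listed span of 3256 to 770341 goes with a coding length of 2496, and the other members overlap no listed gene. A gene table of assembly ASM1142v1 supplied symbols and held 10455 of the 10639 identifiers.

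Tested genes had a CPM of 1 or more in some library and 15 or more counts over all libraries. Slopes and curves were tested with edgeR 4.0.16 (R 4.3.3, TMM, robust quasi-likelihood fits), and p-values were adjusted by Benjamini-Hochberg over all genes. A slope is printed as the change over the hours spanned, and its error includes any bend away from the line. DESeq2 1.42.0 and limma 3.58.1 gave alternative tests, and 0.5 was added before logs. Fold intervals are exact conditional binomial limits. The slope and curve tests were also run on simulated counts whose changes followed the tested term. That check does not cover other courses, such as a single high library. Python 3.11.15 with SciPy 1.17.1 made the summaries, with pandas 2.3.3 for tables and matplotlib 3.10.9 for plots. All 10 members, every other pathway gene past a slope test and the 5 most similar profiles were named by rule. hmgA and hmgX, tyrosine breakdown genes picked up by spelling, were left out, and the further enzymes were put into early or late steps from textbook order. Members and lists were chosen with earlier results of these data known. The alternatives were other scalings, filters, tools and a log time scale, and each library left out in turn. Sequences were not used here.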

Additional observations from a re-analysis of the deposited data

How the results depend on the processing

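With 1 library per time, calls rest on the fit of a line, and no paired analysis was possible because each time has a single library. For the 9 enzyme genes the early minus late difference of median changes over 0 to 48 h was 2.14 log2 units. It lay between 1.77 and 2.21 under all alternative fits of these genes. Another scaling shifts all genes by nearly the same amount, so the scaling alternatives could hardly move this difference. The early and late medians were closer together over the 19 pathway genes (0.37 and -0.99) and over the further enzymes alone (0.04 and -0.95). Over 0 to 48 h 0 members rose and 2 fell; 1 rose with upper quartile factors, and by totals 1 rose and 1 fell. Over 6 to 48 h 3 fell; by totals 1 rose and 1 fell, and leaving out 1 library gave 1 to 3, the 1 being without 48 h. The curve called 2 members, and 5 by totals. The late share at 0 and 48 h (56.5 and 24.4%) was 53.8 and 21.4% without length scaling and 67.7 and 42.1% over the 19 pathway genes. It was 39.0 and 17.8% without erg12 and erg1. At 0 h it was 47.9% without erg13 and erg1. These sets were chosen after seeing the data.

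The changes that turned sign belonged to genes not past the test. By totals over 0 to 48 h they were srbA 0.62, erg9 0.74, erg4 0.067, erg4A 0.77, erg6 0.16 and cyp51B 0.77, and over 6 to 48 h srbA 0.46, erg12 0.48, erg27 0.41, erg9 0.016, mvd1 0.40 and cyp51B 0.12; erg4 and erg6 were past the test over 6 to 48 h only. mvd1 was -0.0038 with DESeq2's size factors and -0.0039 with its test over 0 to 48 h. Over 6 to 48 h erg12 was 0.0038 and srbA 0.0033 with upper quartile factors, and erg27 0.054 on log2 hours. Leaving out 1 library over 0 to 48 h gave -0.60 to 0.33 for erg9, -1.17 to 0.58 for erg4A, -0.21 to 0.49 for mvd1, -0.020 to 0.71 for erg13 and -0.20 to 0.93 for erg27. Over 6 to 48 h it gave -0.91 to 0.11 for erg9, -0.53 to 0.22 for mvd1, -0.95 to 0.11 for hemA, -0.28 to 0.27 for erg12, -0.60 to 0.61 for erg27 and -0.30 to 0.041 for srbA. The cause was not tested.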
